A study of Mus musculus with 6 samples.

Results

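The collagen genes are the rows of the deposited tables whose symbol consists of Col, a number, the letter a and a second number. By that rule 43 of 34591 gene rows were collagen genes: 11 of fibrillar collagens, 8 of basement membrane collagens and 24 of other types. RNA was sequenced from brain tumours of mice that model WNT medulloblastoma, a tumour of the hindbrain with active WNT signalling. In 3 libraries, labelled sh2-Ift88, a short hairpin was directed at Ift88, which encodes a part of the intraflagellar transport machinery that builds primary cilia, and 3 libraries are labelled control. The sample descriptions call both groups medulloblastoma models and name no tumour genotype. The labels give no age, strain, Cre driver, control hairpin, tumour dissection or animal number, so p-values measure the spread between these libraries, which may be technical.

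Collagens are secreted proteins whose chains wind into a triple helix, either from copies of one chain or from chains of different genes. Fibrillar collagens such as types I, III and V form the tensile fibres of connective tissue, and in brain they are found mainly in the meninges, the choroid plexus stroma and the walls of larger vessels. Type IV collagen forms the sheet-like network of basement membranes, in brain chiefly around capillaries and at the pial surface. The remaining types include beaded filaments (type VI), collagens that sit on the surface of fibrils (the FACIT group, among them type IX), collagens anchored in the cell membrane, and short-chain networks.

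Promoter sequences were matched from RefSeq for 35 of the 43 genes. The windows shown are the 250 bases before the annotated start (mouse GRCm38.p6), written 5′ to 3′ on the gene's own strand. They belong to the collagen genes with the smallest p-values, Col9a2 (chr4:121039316-121039565, plus strand) and Col11a2 (chr17:34038888-34039137, plus strand), to Col4a1 (chr8:11312827-11313076, minus strand), which is transcribed head to head with Col4a2 and whose level was among the steadiest, and to Col1a2 (chr6:4505368-4505617, plus strand), whose proportion to its partner chain Col1a1 spanned 26.03 times. Capitals mark 3 motifs searched on both strands: the CCAAT box (CCAAT or ATTGG), the TATA box (TATAAA or TTTATA) and the GC box (GGGCGG or CCGCCC). A GC box can share bases with a CCAAT box, which did not occur in these windows.
Col9a2: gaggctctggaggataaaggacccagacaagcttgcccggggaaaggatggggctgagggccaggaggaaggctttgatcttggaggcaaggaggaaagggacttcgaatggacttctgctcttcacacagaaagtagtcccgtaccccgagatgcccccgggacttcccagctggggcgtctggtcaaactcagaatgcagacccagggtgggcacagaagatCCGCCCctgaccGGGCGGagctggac
Col11a2: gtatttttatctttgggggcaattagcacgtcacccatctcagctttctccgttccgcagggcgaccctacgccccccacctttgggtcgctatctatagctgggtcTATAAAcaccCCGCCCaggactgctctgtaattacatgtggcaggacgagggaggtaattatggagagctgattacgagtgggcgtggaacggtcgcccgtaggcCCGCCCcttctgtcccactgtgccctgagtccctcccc
Col4a1: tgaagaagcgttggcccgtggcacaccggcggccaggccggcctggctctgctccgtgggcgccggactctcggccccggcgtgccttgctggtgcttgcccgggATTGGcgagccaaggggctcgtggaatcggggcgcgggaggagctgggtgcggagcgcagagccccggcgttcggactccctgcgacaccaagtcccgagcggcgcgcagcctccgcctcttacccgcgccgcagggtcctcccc
Col1a2: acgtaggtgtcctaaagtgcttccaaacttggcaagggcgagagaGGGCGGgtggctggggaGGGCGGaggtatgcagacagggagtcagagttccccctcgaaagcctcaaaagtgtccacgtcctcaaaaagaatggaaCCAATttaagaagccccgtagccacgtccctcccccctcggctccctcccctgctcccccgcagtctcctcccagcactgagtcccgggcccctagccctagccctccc
The window of Col9a2 holds 2 GC boxes, 26 and 14 bases before the start. That of Col11a2 holds a TATA-box match 143 bases and GC boxes 133 and 38 bases before the start. A CCAAT box stands 145 bases before the start of Col4a1 and 109 bases before that of Col1a2, which also has GC boxes at 205 and 188 bases. The GC box was present in 57.9% of the 38 collagen windows, against 32.7% of all 32851 windows of this length. The CCAAT box stood in 34.2% of collagen windows, against 33.8% of all, and the TATA box in 13.2%, against 12.4%. These matches are letters only and are not evidence of binding.

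Gene counts summed to between 26802618 and 33772559 per library. Levels are given in CPM (counts-per-million), with library sizes scaled by TMM factors, and fold changes are log2 of sh2-Ift88 over control. Libraries are numbered 1 to 3 within a group in accession order, which pairs none. sh2-Ift88 3 stood apart: 41.7% of its gene counts fell on 5 satellite-like rows (Gm10800 and similar), against at most 9.10% in the others, and its TMM factor was 0.598, against 1.05 to 1.24. A further split did not follow the groups: reads fell on 387 to 564 of 1249 olfactory receptor rows in sh2-Ift88 2, sh2-Ift88 3 and control 2, and on 24 to 38 in sh2-Ift88 1, control 1 and control 3. The targeted gene was not detectably lower: Ift88 stood at 14.7, 16.03 and 14.4 CPM in the libraries labelled sh2-Ift88, against 13.8, 19.7 and 13.7 CPM in the controls. The fold was 0.957, with a 95% interval of 0.613 to 1.49. The groups are therefore called by their labels. Scaling by library totals alone moved the median log2 fold change of all genes from -0.012 to -0.33. Of 7 WNT target genes such as Axin2 and Wif1, 6 passed the filter on low counts and none was at 0 in all libraries. The 7 genes summed to 4022, 2810 and 3626 CPM in sh2-Ift88 libraries and to 4077, 2463 and 2088 CPM in control libraries. No tissue without active WNT signalling was there to compare with, so these values do not test the tumour label.

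No collagen gene differed between the groups past the threshold. Of the 40 collagen genes that passed the filter on low counts, 0 rose and 0 fell at an adjusted p of 0.05 (edgeR's quasi-likelihood test, Benjamini-Hochberg over 16768 genes), and among all genes tested the share called was 0% in each direction. At an unadjusted p of 0.05, 3 collagen genes were higher (Col11a2, Col22a1 and Col9a2) and 1 lower (Col8a1), beside 1.97% of all genes higher and 1.26% lower. limma-voom called no gene, and edgeR without a filter called 5 genes higher (0.0161%) and 1 lower (0.00323%), none a collagen. DESeq2 called 45 genes higher (0.268% of those tested) and 13 lower (0.0775%), among them 2 collagen genes, both higher, Col9a2 (adjusted p = 0.00716) and Col11a2 (adjusted p = 0.0239). In this bulk RNA, fewer cells of a type and less RNA per cell cannot be told apart.

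Fitted log2 fold changes were above 0 for 25 of 40 collagen genes, beside 48.7% of all genes tested, and below 0 for 15, beside 51.3%. Their median was 0.36, beside -0.012 for all genes. It was -0.0088 for the 11 fibrillar genes (5 above 0, 6 below), -0.0039 for the 8 basement membrane genes (4 above, 4 below) and 0.43 for the 21 other genes tested (16 above, 5 below). Within the libraries with olfactory reads the median over all collagens was -0.19, and within those without it was 0.39, so its sign followed which libraries were set against each other. The fibrillar median likewise was -0.42 within the libraries with olfactory reads and 0.52 within those without, so the order of the classes was not stable. Every value of this paragraph describes the list and none of it was tested.

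The summed collagen level did not separate the groups. All 43 genes together reached 6509, 4922 and 3356 CPM in sh2-Ift88 libraries, against 3830, 5541 and 4896 CPM in control libraries (4929 ± 1576 and 4755 ± 864, SD, n = 3 each). Fibrillar genes summed to 3966, 2526 and 1530 CPM in sh2-Ift88 libraries and to 2134, 3210 and 3514 CPM in controls. Basement membrane genes summed to 1006, 1059 and 618 CPM in sh2-Ift88 libraries and to 796, 1049 and 592 CPM in controls. In both classes the groups overlapped. The other collagens summed to 1536, 1336 and 1208 CPM in sh2-Ift88 libraries and to 899, 1281 and 790 CPM in controls (1360 ± 166 and 990 ± 258), again with overlap, since control 2 lay above sh2-Ift88 3.

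**Figure D1:**
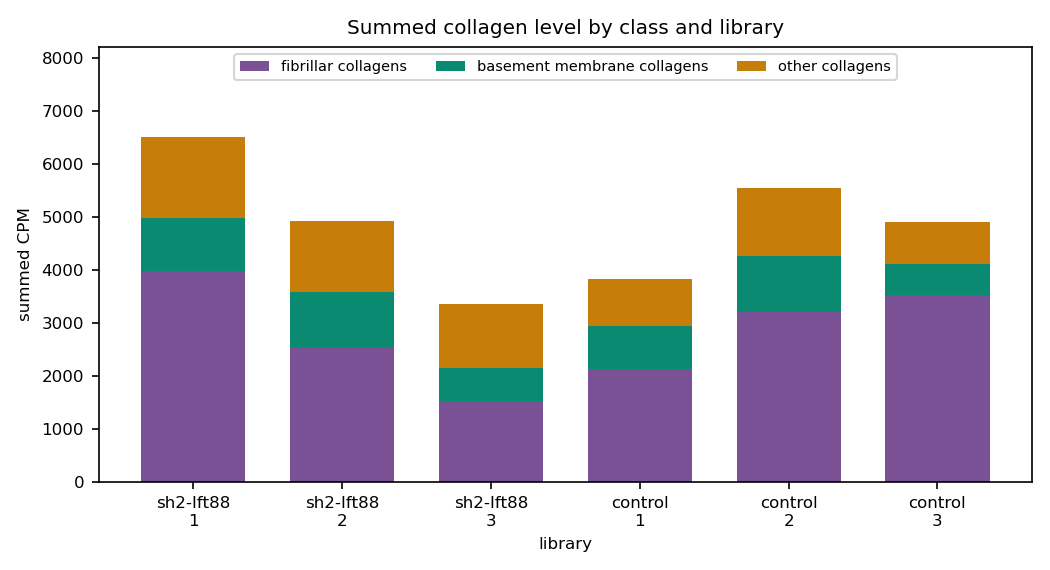
Stacked bars of the summed level of fibrillar, basement membrane and other collagen genes, in CPM, with 1 bar a library and sh2-Ift88 libraries left of control libraries. The groups overlap in all 3 classes, and the fibrillar sum spans 1530 to 3966 CPM within the sh2-Ift88 libraries alone.

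**Figure D2:**
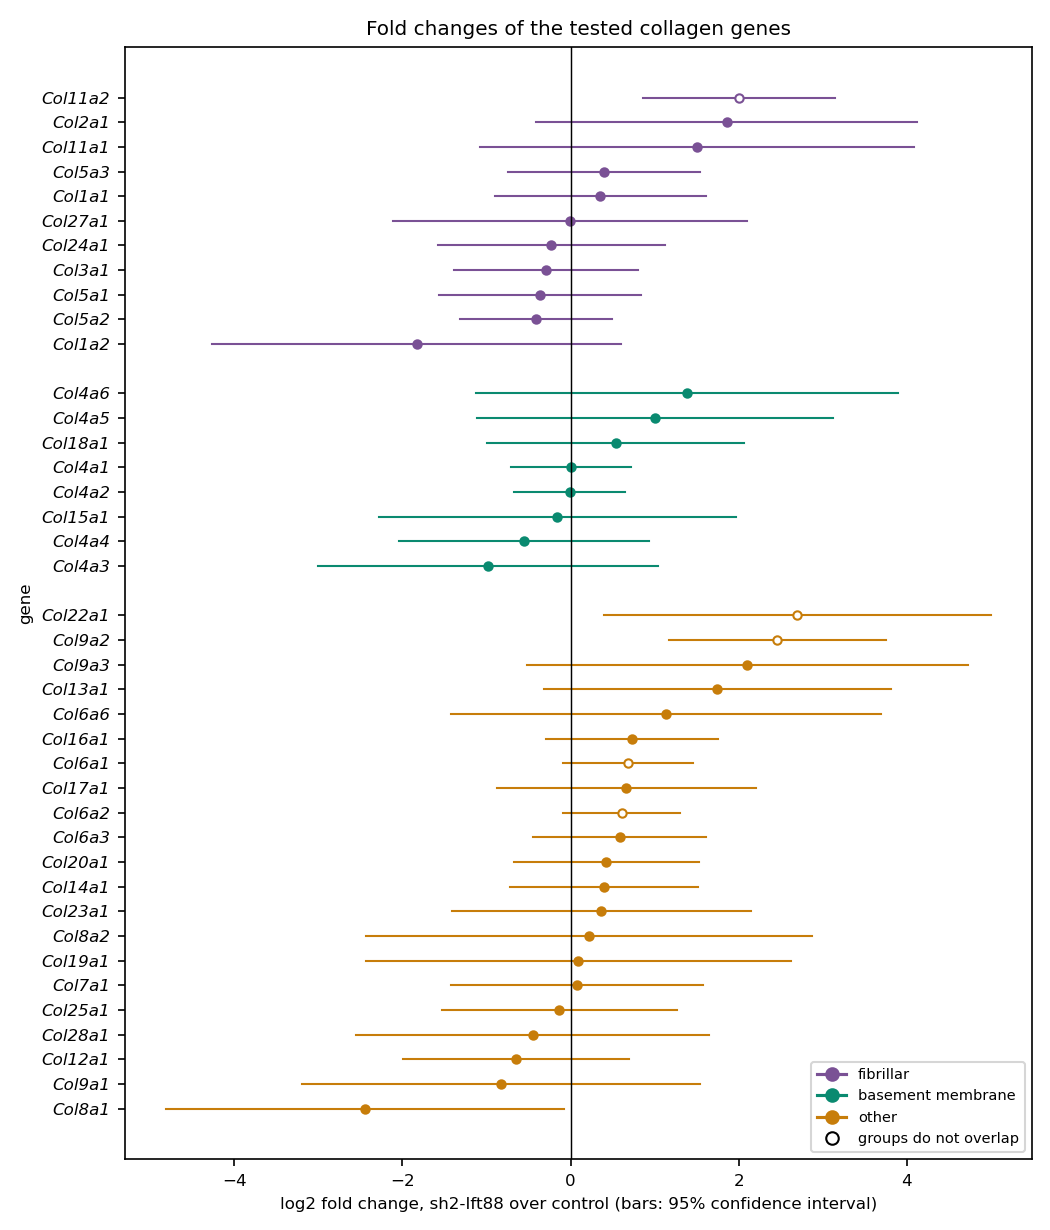
Log2 fold change of sh2-Ift88 over control for the 40 collagen genes tested with edgeR, ordered within class, with bars for the 95% confidence interval and open marks where the groups do not overlap. Only 4 intervals lie clear of 0, among them those of Col9a2 (1.17 to 3.75) and Col11a2 (0.86 to 3.15), and no gene passed after adjustment.

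The fibrillar genes held 60.9%, 51.3% and 45.6% of the summed collagen CPM in sh2-Ift88 libraries and 55.7%, 57.9% and 71.8% in control libraries. Per kilobase of transcript, Col3a1, the chain of type III collagen that accompanies type I in elastic tissues, had the highest median level of the 43 genes, 273 CPM per kb. Col5a2, a chain of type V collagen, which controls fibril diameter, was next at 93.7 CPM per kb, and Col1a1, the main chain of type I, had 43.2. Levels per kb correct for length alone, so ranks between genes also depend on how their reads were aligned and counted. Col3a1 exceeded Col5a2 per kb in each of the 6 libraries, by 1.46 to 4.50 times. Col4a1 (median 60.2 CPM per kb) likewise exceeded Col1a1 in each library, most narrowly in control 1 (57.1 against 53.6 CPM per kb). Col6a1 (median 40.7 CPM per kb) lay above Col1a1 in some libraries and below it in others.

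Col3a1 had 1618, 1417 and 744 CPM in sh2-Ift88 libraries, against 824, 1649 and 2158 CPM in control libraries. The highest and the lowest library thus belonged to different groups but the rest interleaved, and the log2 fold change was -0.29 (SE 0.47). Col5a2 stood at 809, 493 and 496 CPM in sh2-Ift88 libraries and at 670, 1155 and 571 CPM in controls (log2 fold change -0.41, SE 0.39). Col1a1 had 388, 286 and 141 CPM in sh2-Ift88 libraries and 318, 92.7 and 226 CPM in controls (log2 fold change 0.36, SE 0.53). Each of these 3 genes ranged more within a group than the group means differed. Col5a1, the partner chain of Col5a2, overlapped as well, with 44.5 to 175 CPM in sh2-Ift88 libraries and 89.7 to 189 CPM in controls.

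Col1a2, the second chain of type I collagen, was carried by 1 library. It had 21.1, 12.3 and 51.9 CPM in sh2-Ift88 libraries, against 30.7, 18.5 and 254 CPM in control libraries, so control 3 held 65.4% of the summed CPM. Its log2 fold change was -1.83 (SE 1.03) with all libraries and 0.20 without control 3. That control also differed from the other libraries in several marker lists. The 8 markers of mature neurons summed to 529 CPM there and to 26.8 to 247 CPM elsewhere, with 7 of the 8 highest in control 3. All 6 oligodendrocyte markers were highest there, at a sum of 252 CPM, against 21.7 to 118 CPM elsewhere. Ibsp, a bone matrix sialoprotein, had 32.5 CPM in control 3 and at most 0.375 CPM elsewhere, and Dcn, the fibroblast proteoglycan decorin, had 80.3 CPM there and 1020 to 1399 CPM elsewhere. The 12 fibroblast markers summed to 1807 to 2305 CPM in sh2-Ift88 libraries and to 852 to 1980 CPM in controls, with the minimum in control 3, where 5 of the 12 were lowest and 1 was highest, so that the low sum was mainly that of Dcn. The part of these markers in the Col1a2 value was not tested.

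Type XI and type II collagens, which form the thin fibrils of cartilage and are also expressed in some neural and sensory tissues, included the fibrillar gene of smallest p. Col11a2 had 18.7, 17.98 and 10.5 CPM in sh2-Ift88 libraries, against 4.69, 5.20 and 1.88 CPM in control libraries. Every sh2-Ift88 library lay above every control (15.7 ± 4.53 and 3.93 ± 1.79 CPM, SD, n = 3 each). On the log2 scale the difference was 2.003 (SE 0.49, 95% interval 0.86 to 3.15, edgeR adjusted p = 0.9995). It was 1.44 within the libraries with olfactory reads and 2.48 within those without. Leaving out single libraries gave 1.66 to 2.25.

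Col11a1, the partner of Col11a2, showed another pattern: 904, 151 and 28.7 CPM in sh2-Ift88 libraries, against 123, 57.7 and 202 CPM in controls. Its log2 fold change of 1.502 (SE 1.10) rested on sh2-Ift88 1 and was -0.54 without it. Col2a1, the main collagen of cartilage, had 5.38, 0.94 and 0.81 CPM in sh2-Ift88 libraries, against 0.21, 1.17 and 0.59 CPM in controls (log2 fold change 1.86, SE 0.97, and 0.40 without sh2-Ift88 1). In both genes the highest library was sh2-Ift88 1. That library also held Ttr, the transthyretin made by choroid plexus epithelium, at 1389 CPM, against at most 0.739 CPM in the others. The 6 choroid plexus markers, none at 0 in all libraries, summed to 1477, 209 and 68.0 CPM in sh2-Ift88 libraries and to 127, 35.9 and 20.7 CPM in controls. The high sum in sh2-Ift88 1 was thus mainly that of Ttr. Of the 5 markers that passed the filter, 3 were highest in sh2-Ift88 1, 1 in sh2-Ift88 2 and 1 in control 2. The part of these markers in the levels of Col11a1 and Col2a1 was not tested.

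Of the cartilage and bone markers, Acan and Comp were low. Acan, the cartilage proteoglycan aggrecan, did not exceed 0.187 CPM in any library, while Comp, a matrix protein that binds type IX and type II collagen, had 3.73, 2.28 and 3.50 CPM in sh2-Ift88 libraries, against 0.82, 0.81 and 0.47 CPM in controls. Comp was thus higher without overlap, beside 4.7% of all genes tested. All 11 cartilage and bone markers were detected in at least 1 library, and 4 passed the filter. Of these 4, 1 had a log2 fold change above 0 (2.18) and 3 below, with a median of -0.45. The smallest unadjusted p among the 4 was 0.0037 by edgeR's quasi-likelihood test, and 0 passed the threshold after adjustment. The list summed to 37.3, 63.5 and 84.0 CPM in sh2-Ift88 libraries and to 85.5, 64.7 and 140 CPM in controls. Most of each sum came from members other than Acan and Comp. The remaining fibrillar genes, Col5a3, Col24a1 and Col27a1, lay between 1.85 and 21.2 CPM, with groups that overlapped and log2 fold changes of 0.40, -0.23 and -0.0088.

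**Figure D3:**
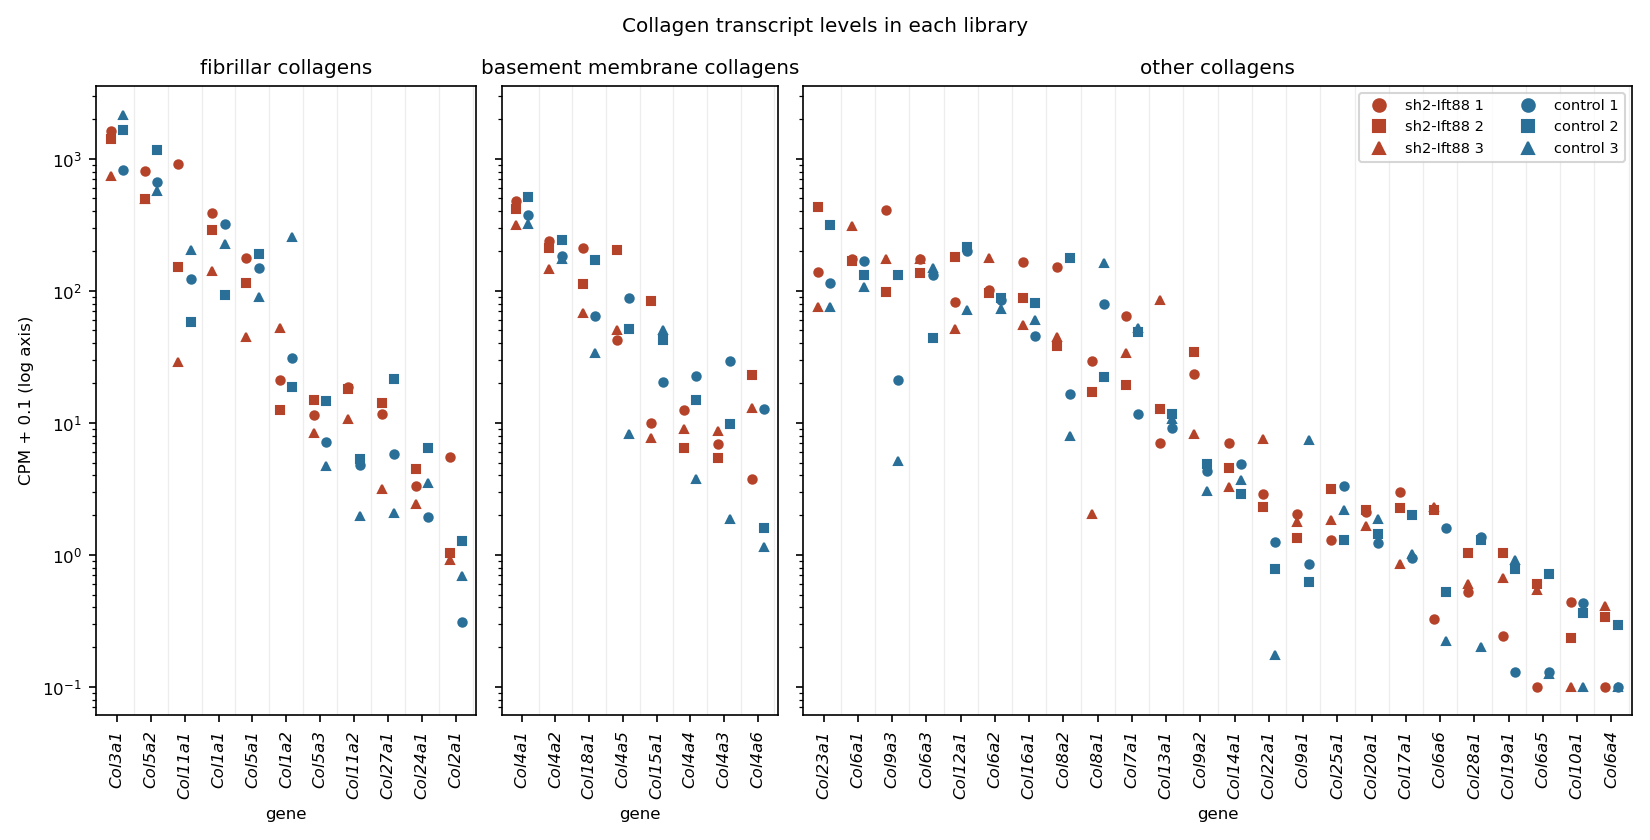
Level of each of the 43 collagen genes in each library (1 mark a library), by class, in CPM plus an offset of 0.1 on a log axis, with sh2-Ift88 libraries left of control libraries. Col11a2 and Col9a2 show no overlap between the groups, while the high points of Col11a1, Col1a2 and Col13a1 are single libraries.

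The main basement membrane chains were near equal between the groups. Col4a1, which with Col4a2 makes the common type IV network of vessels, had 482, 419 and 316 CPM in sh2-Ift88 libraries, against 378, 516 and 320 CPM in control libraries (406 ± 83.5 and 405 ± 101, SD, n = 3 each). The fold of sh2-Ift88 over control was 1.002, with a 95% interval of 0.610 to 1.65. Col4a2 had 238, 209 and 146 CPM in sh2-Ift88 libraries and 182, 242 and 173 CPM in controls, a fold of 0.992 with an interval of 0.627 to 1.57. Differences smaller than these bounds could not be resolved with 3 libraries a group. The sign of the Col4a1 value changed with the scaling: the log2 fold change was 0.0036 with TMM, -0.018 with DESeq2 size factors and -0.25 with library totals. Levels of 9 endothelial markers, which summed to 168, 155 and 101 CPM in sh2-Ift88 libraries and to 176, 130 and 81.1 CPM in controls, overlapped as well.

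The other type IV chains were lower and more uneven. Col4a3 and Col4a4, neighbours on their chromosome that join Col4a5 in the network of kidney glomeruli and other specialised membranes, were both highest in control 1. Col4a3 had 6.85, 5.31 and 8.49 CPM in sh2-Ift88 libraries, against 29.3, 9.69 and 1.76 CPM in controls (log2 fold change -0.98, SE 0.86, and 0.27 without control 1). Col4a4 had 12.4, 6.38 and 8.93 CPM in sh2-Ift88 libraries and 22.3, 14.8 and 3.66 CPM in controls (log2 fold change -0.55, and 0.0036 without control 1). In GENCODE M21, 563 exon bases of Col4a3 lie opposite another gene, so part of its count may belong to that gene if strand was not used in counting.

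Col4a5 and Col4a6, a head-to-head pair on the X chromosome, peaked together in sh2-Ift88 2. Col4a5 stood at 42.5, 202 and 50.2 CPM in sh2-Ift88 libraries, against 87.5, 51.5 and 8.16 CPM in controls (log2 fold change 1.003, SE 0.90). Without sh2-Ift88 2 its log2 fold change was -0.085. Col4a6 had 3.62, 22.98 and 12.8 CPM in sh2-Ift88 libraries, against 12.5, 1.496 and 1.04 CPM in controls (log2 fold change 1.39, SE 1.07, with 3.37 without control 1 and 0.70 without sh2-Ift88 2). Both genes were lowest in control 3, and the groups overlapped in both.

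Col18a1, whose C-terminal fragment is endostatin, had 211, 112 and 67.6 CPM in sh2-Ift88 libraries, against 64.6, 171 and 33.7 CPM in controls. Its log2 fold change was 0.54 (SE 0.65), and -0.013 without sh2-Ift88 1. Col15a1, the related basement membrane zone collagen, had 83.5 CPM in sh2-Ift88 2 and between 7.56 and 50.01 CPM in the others. Neither gene separated the groups.

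Among the other collagens, the chains of type VI, which form beaded filaments beside basement membranes, had higher mean levels in the sh2-Ift88 libraries, without passing the threshold. All 4 type VI genes tested had fold changes above 0, with a median of 0.65. Col6a1 had 174, 167 and 308 CPM in sh2-Ift88 libraries, against 167, 131 and 106 CPM in control libraries. No library of one group reached into the other, though sh2-Ift88 2 and control 1 differed by less than 1 CPM (216 ± 79.2 and 135 ± 30.5 CPM, SD, n = 3 each). This gave a log2 fold change of 0.69 (SE 0.33, edgeR adjusted p = 0.9995).

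Col6a2, adjacent to Col6a1 in the genome, had 102, 95.9 and 177 CPM in sh2-Ift88 libraries, against 84.8, 88.6 and 72.5 CPM in controls (log2 fold change 0.61, SE 0.30, edgeR adjusted p = 0.9995). Both chains were highest in sh2-Ift88 3, the library with the low TMM factor, and without it the log2 fold changes were 0.32 for Col6a1 and 0.24 for Col6a2. Scaled by library totals, Col6a1 had 182, 182 and 184 CPM in sh2-Ift88 libraries, against 178, 145 and 131 CPM in controls, and its log2 fold change was 0.28. On that scale Col6a2 had 106, 105 and 106 CPM in sh2-Ift88 libraries, against 90.4, 97.8 and 89.7 CPM in controls, with a log2 fold change of 0.19. The 3 sh2-Ift88 libraries thus lay closer together by library totals, and the groups still did not overlap. Col6a3, the large remaining chain, had 173, 135 and 175 CPM in sh2-Ift88 libraries and 131, 43.9 and 147 CPM in controls, with overlap (log2 fold change 0.58, SE 0.44). The other type VI genes were low: Col6a6 reached at most 2.19 CPM, and Col6a4 and Col6a5 did not pass the filter.

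Type IX collagen, a FACIT collagen that decorates cartilage fibrils, gave the smallest p of all collagen genes. Col9a2 had 23.4, 34.2 and 8.06 CPM in sh2-Ift88 libraries, against 4.21, 4.81 and 2.92 CPM in control libraries. Every sh2-Ift88 library lay above every control (21.9 ± 13.2 and 3.98 ± 0.969 CPM, SD, n = 3 each). Its log2 fold change reached 2.46 (SE 0.55, 95% interval 1.17 to 3.75, edgeR adjusted p = 0.9995). It was 2.12 within the libraries with olfactory reads, 2.68 within those without, and 1.98 to 2.83 when single libraries were left out. Scaled by library totals the groups overlapped, with 24.5, 37.4 and 4.81 CPM in sh2-Ift88 libraries and 4.49, 5.31 and 3.61 CPM in controls.

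Col9a3, another type IX chain, was more abundant and more uneven, with 407, 97.1 and 173 CPM in sh2-Ift88 libraries, against 20.9, 132 and 4.99 CPM in controls. Its log2 fold change was 2.10 (SE 1.12, edgeR adjusted p = 0.9995), control 2 lay above sh2-Ift88 2, and the value was 0.028 within the libraries with olfactory reads and 4.95 within those without. Leaving out single libraries gave 1.36 (without sh2-Ift88 1) to 4.12 (without control 2). Of its exon bases in GENCODE M21, 234 lie opposite Tcfl5. Col9a1, the remaining chain, had a fold change of the other sign, with 1.92, 1.24 and 1.69 CPM in sh2-Ift88 libraries, against 0.76, 0.52 and 7.29 CPM in controls. Its log2 fold change was -0.82 with all libraries and 1.33 without control 3. Type IX collagen can be built from all of these chains, and each was highest in another library, Col9a1 in control 3, Col9a2 in sh2-Ift88 2 and Col9a3 in sh2-Ift88 1.

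Col22a1, a FACIT collagen of tissue junctions, was low: 99, 65 and 119 reads (2.80, 2.18 and 7.43 CPM) in sh2-Ift88 libraries, against 38, 21 and 3 reads (1.15, 0.68 and 0.074 CPM) in controls. The groups did not overlap, and the log2 fold change was 2.70 (SE 0.98, edgeR adjusted p = 0.9995). It was 1.96 without sh2-Ift88 3 and 3.46 without control 1. The other FACIT genes did not separate the groups. Not corrected for length, Col12a1 had the highest mean CPM of them, with 50.9 to 180 CPM in sh2-Ift88 libraries and 71.7 to 216 CPM in controls, followed by Col16a1 with 54.8 to 165 CPM in sh2-Ift88 libraries and 44.9 to 80.65 CPM in controls. Col14a1, Col19a1 and Col20a1 did not exceed 6.99 CPM in any library. In all, 7 of the 9 FACIT genes had fold changes above 0, with a median of 0.43.

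Counted over the class lists, groups did not overlap in 5 of 40 collagen genes, all higher in sh2-Ift88 libraries (Col11a2, Col22a1, Col6a1, Col6a2 and Col9a2, or 12.5%), and in none lower. Among all genes tested, 4.7% were higher and 3.69% lower without overlap. By library totals, 4 of 40 collagen genes (all but Col9a2) were higher without overlap, beside 1.07% of all genes, and 0 were lower, beside 10.2%.

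Membrane-anchored and short-chain collagens varied by library. Col23a1, a transmembrane collagen shed from the cell surface, had 139, 433 and 75.0 CPM in sh2-Ift88 libraries, against 114, 314 and 75.4 CPM in controls. Each group thus had 1 high library, both among those with olfactory reads. The lowest library, sh2-Ift88 3, was also among those with olfactory reads. The log2 fold change was 0.36 (SE 0.76). Col13a1, a transmembrane collagen of cell junctions, had 6.96, 12.6 and 85.3 CPM in sh2-Ift88 libraries, against 8.99, 11.6 and 10.6 CPM in controls. The single library sh2-Ift88 3 held 62.7% of its summed CPM, and the log2 fold change of 1.74 (SE 0.88) was -0.12 without it. Col17a1 and Col25a1 stayed at or under 3.24 CPM.

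Col8a1, a chain of the type VIII network of vessel walls and the corneal endothelium, was the collagen gene of smallest p in the lower direction. It had 29.3, 16.9 and 1.94 CPM in sh2-Ift88 libraries, against 79.7, 21.95 and 162 CPM in control libraries. Control 3 held 52.0% of the summed CPM, sh2-Ift88 1 lay above control 2, and the log2 fold change was -2.45 (SE 1.01, edgeR adjusted p = 0.9995). Leaving out single libraries gave -3.25 to -1.66. Col8a2, its partner, had 152, 37.8 and 44.6 CPM in sh2-Ift88 libraries and 16.5, 177 and 7.91 CPM in controls, with no such direction (log2 fold change 0.22, SE 1.13). Col7a1, the anchoring fibril of epithelia, had 19.2 to 64.7 CPM in sh2-Ift88 libraries and 11.5 to 51.9 CPM in controls.

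Genes near the limit of detection were few. Col10a1, the collagen of growth plate cartilage, had 12, 4 and 0 reads in sh2-Ift88 libraries and 11, 8 and 0 reads in controls. Col6a4 had 0, 7 and 5 reads in sh2-Ift88 libraries and 0, 6 and 0 reads in controls, so its reads came only from the libraries with olfactory reads. Col6a5 had 0, 15 and 7 reads in sh2-Ift88 libraries and 1, 19 and 1 reads in controls. Col28a1 and Col19a1 passed the filter with at most 1.27 CPM.

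Chains that assemble into one molecule kept a steady proportion in some types and not in others. Ratios were taken per kilobase of transcript, which corrects for length alone. The Col4a1 to Col4a2 ratio was 1.97, 1.95 and 2.12 in sh2-Ift88 libraries and 2.02, 2.08 and 1.80 in control libraries, a spread of 1.18 times from the lowest to the highest. The Col6a1 to Col6a2 ratio was 1.95, 1.98 and 1.97 in sh2-Ift88 libraries and 2.23, 1.68 and 1.66 in controls (1.34 times). These were the steadiest of 13 ratios computed, and both pairs are neighbours in the genome, as are Col4a3 with Col4a4 and Col4a5 with Col4a6.

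The Col1a1 to Col1a2 ratio, by contrast, was 16.6, 20.9 and 2.44 in sh2-Ift88 libraries and 9.33, 4.51 and 0.804 in controls, a spread of 26.03 times. Type I collagen molecules usually hold more Col1a1 than Col1a2 chains, but no protein was measured here. The RNA ratio lay below 1 in control 3 and between 2.44 and 20.9 in the other libraries. Such ratios also depend on how reads of each gene were aligned and counted, which was not tested. Col4a3 to Col4a4 ranged over 2.74 times, Col4a5 to Col4a6 over 8.77 times and Col6a3 to Col6a1 over 4.16 times. The widest were Col9a3 to Col9a1, from 0.862 in control 3 to 318 in control 2, and Col8a2 to Col8a1, from 0.0575 in control 3 to 27.2 in sh2-Ift88 3. Col11a1 to Col11a2 was 38.2, 6.64 and 2.16 in sh2-Ift88 libraries and 20.6, 8.75 and 85.0 in controls, a spread of 39.4 times. In each of these ratios the groups overlapped.

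**Figure D4:**
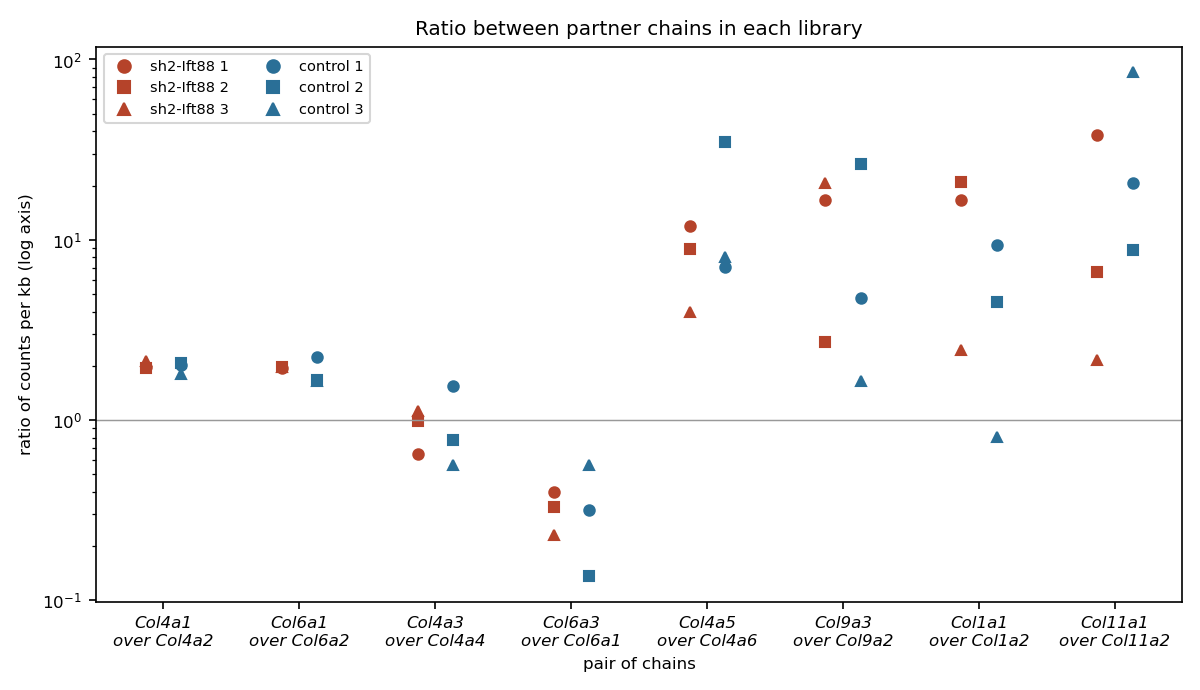
Ratio of the levels per kilobase of 8 pairs of partner collagen chains in each library, on a log axis, with sh2-Ift88 libraries left of control libraries. Col4a1 over Col4a2 stays between 1.80 and 2.12 and Col6a1 over Col6a2 between 1.66 and 2.23, while Col1a1 over Col1a2 spans 0.804 to 20.9.

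Collagen genes with a mean of at least 10 CPM varied more between libraries than most genes above that level, without matching by abundance. Among the 26 collagen genes with a mean of at least 10 CPM, the highest library exceeded the lowest by a median of 5.71 times, beside 2.04 times for the 10060 genes above the same level. The range was at least 10 times in 10 of the 26 (38.5%: Col11a1, Col13a1, Col15a1, Col1a2, Col4a3, Col4a5, Col8a1, Col8a2, Col9a2 and Col9a3), beside 4.68% of all such genes. It was at least 4 times in 17 (65.4%), beside 13.5%. The 2 collagen genes with a range below the all-gene median were Col4a1 (1.63 times) and Col4a2 (1.66 times). Of the 40 tested genes, 10, 8 and 6 were highest in sh2-Ift88 1, 2 and 3 (25%, 20% and 15%), beside 17.9%, 13.9% and 16.3% of all genes tested. In control 1, 2 and 3, 4, 8 and 4 were highest (10%, 20% and 10%), beside 17.8%, 11.2% and 23%. The lowest level fell in control 3 for 16 genes (40%), beside 24.5% of all genes tested, and in sh2-Ift88 3 for 10 (25%), beside 14.4%.

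**Figure D5:**
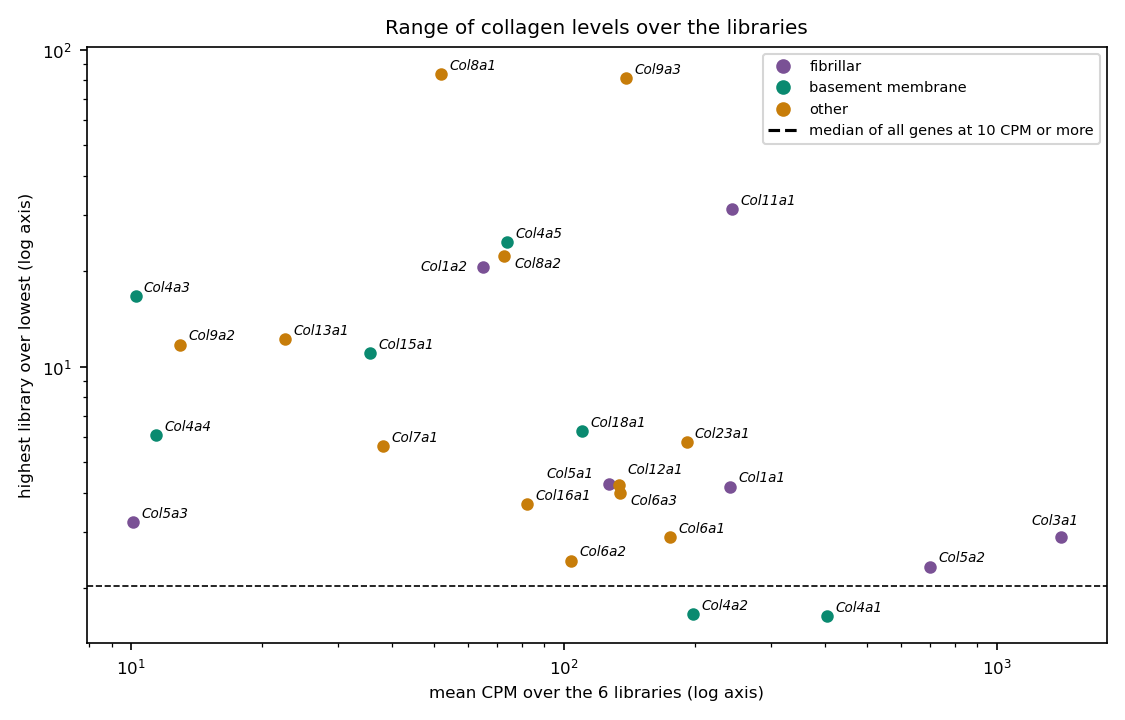
Highest over lowest library level, on a log axis, against the mean level in CPM over all libraries, on a log axis, for the 26 collagen genes with a mean of at least 10 CPM; the dashed line is the median of all genes above that level, 2.04. Col4a1 and Col4a2 lie below the line and Col8a1, Col9a3 and Col11a1 lie farthest above it.

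Genes that make, bind or degrade collagen did not pass the threshold either. Of 72 such genes tested in 6 lists, 0 passed with edgeR. Its unadjusted p was under 0.05 for 1, Timp1, which was lower, beside 1.26% of all genes lower and 1.97% higher. Folding and modification genes, such as the prolyl hydroxylases and the chaperone Serpinh1, were 8 higher and 8 lower (median log2 fold change 0.037). P4ha2, a prolyl hydroxylase subunit, had 27.8, 29.4 and 30.4 CPM in sh2-Ift88 libraries, against 68.0, 30.3 and 42.9 CPM in controls (log2 fold change -0.69, SE 0.32). Plod2, a lysyl hydroxylase, had 82.9, 58.7 and 98.4 CPM in sh2-Ift88 libraries and 129, 80.9 and 148 CPM in controls (log2 fold change -0.57). The groups overlapped in both. Serpinh1, also known as HSP47, had 668, 773 and 501 CPM in sh2-Ift88 libraries and 708, 451 and 318 CPM in controls, with overlap. Plod1, of the same list, was higher without overlap, beside 4.7% of all genes tested. It had 84.5, 97.9 and 82.7 CPM in sh2-Ift88 libraries and 75.2, 75.6 and 15.4 CPM in controls (log2 fold change 0.67, SE 0.55). Secretion and crosslinking genes were 5 higher and 7 lower (median -0.23), among them Lox, lysyl oxidase, with 2.21, 1.11 and 1.19 CPM in sh2-Ift88 libraries and 1.36, 4.46 and 7.14 CPM in controls. Loxl4, a lysyl oxidase relative, had 8.71, 9.51 and 3.06 CPM in sh2-Ift88 libraries and 44.0, 5.24 and 7.49 CPM in controls, 1 of which was far above the rest.

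Turnover genes were 5 higher and 6 lower (median -0.22). Timp1, an inhibitor of collagenases, had 2.83, 3.19 and 1.56 CPM in sh2-Ift88 libraries, against 10.4, 6.47 and 3.98 CPM in controls, with no overlap (log2 fold change -1.46, SE 0.53, edgeR adjusted p = 0.9995). Among all genes tested, 3.69% were lower without overlap. Mmp2, a gelatinase that cleaves type IV collagen, had 422, 534 and 491 CPM in sh2-Ift88 libraries and 481, 188 and 162 CPM in controls (log2 fold change 0.80, SE 0.45). Collagen receptors were 4 higher and 5 lower (median -0.029). Itga1, an integrin subunit that binds type IV collagen, had 15.6, 9.37 and 6.75 CPM in sh2-Ift88 libraries and 10.7, 24.4 and 13.2 CPM in controls, and Itga2, its relative, had 0.962, 1.21 and 0.874 CPM in sh2-Ift88 libraries and 1.45, 4.52 and 0.346 CPM in controls, both with overlap. Laminins with other basement membrane partners were 8 higher and 7 lower (median 0.0047). The laminin chain Lamb3 had 1.90, 5.95 and 1.62 CPM in sh2-Ift88 libraries and 64.1, 0.72 and 1.95 CPM in controls (log2 fold change -2.81), with 1 control far above the rest. Lamc3 had 2.57, 5.48 and 25.5 CPM in sh2-Ift88 libraries and 1.76, 2.93 and 5.27 CPM in controls (log2 fold change 1.75).

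Matrix proteins that bind collagen were 8 higher and 1 lower, with a median log2 fold change of 0.50. Sparc had 1350, 1171 and 762 CPM in sh2-Ift88 libraries, against 972, 1036 and 334 CPM in controls, and Bgn, the proteoglycan biglycan, had 29.7, 105 and 41.9 CPM in sh2-Ift88 libraries, against 37.4, 21.1 and 24.9 CPM in controls. Both overlapped between groups. In 5 of these 9 genes control 3 was the lowest library, Dcn among them, beside 24.5% of all genes tested.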

How the data were processed

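Per the labels' protocols, 6 libraries were prepared from total RNA with TruSeq Stranded Total RNA reagents. BWA and the mm9 build are named in the submitters' processing notes. How reads were counted (program, annotation, strand, reads matching several places) is not given in the sources used here. Each deposited table holds whole-number counts per gene, not normalized, and its 5 closing tallies were left out. edgeR 4.0.16 in R 4.3.3 kept 16768 of 34591 rows (filterByExpr) and scaled them with TMM. The 3 sh2-Ift88 libraries were set against the 3 controls by the quasi-likelihood test (two-sided, robust=TRUE), with Benjamini-Hochberg adjustment at 0.05 over all tested genes. The method was tested on simulated data. Groups came from the sample descriptions and replicate numbers from accession order. Levels per kilobase use the longest protein-coding transcript in GENCODE M21, which is GRCm38 and served for lengths and overlaps only. Promoters are RefSeq entries of GRCm38.p6.

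The collagen genes, classes, partner lists and marker lists were chosen with earlier results of these data known. Genes named with values in every library are the 4 most abundant of each class, those whose groups did not overlap, the 3 of smallest p per direction, those with over 50% of their CPM in 1 library, partner chains of these, and 2 per partner list. Dcn, Ibsp, Ttr, Comp, Acan, Serpinh1, Plod1, Col8a2 and other members given by values were named after their values were seen. Alternatives were DESeq2 1.42.0, limma-voom (limma 3.58.1), other scalings and filters, leaving out each library, and splitting or adjusting by olfactory reads.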

Additional observations from a re-analysis of the deposited data

How the results depend on the processing

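No paired analysis was possible because replicate numbers come from accession order and pair no samples. The counts of calls, the class medians and the fold changes of the 24 named collagen genes were recomputed under 17 alternatives; summed levels, ratios, ranges and the other lists were not. The count of genes called was 0, and became 58 with DESeq2 and 6 without a filter; the count of collagen genes called higher became 2 with DESeq2, and the count called lower stayed at 0 throughout. The median log2 fold change of all collagens (0.36) was -0.19 within libraries with olfactory reads, and that of fibrillar genes (-0.0088) was 0.52 within libraries without them. The median of the other collagens (0.43) was 0.19 with library totals, 0.56 with limma-voom and 0.29 within libraries with olfactory reads. The cause of these shifts was not tested. Within libraries with olfactory reads control 2 stands alone against sh2-Ift88 2 and 3, and within those without sh2-Ift88 1 stands alone against controls 1 and 3, so the lone library is assumed to vary like the others.

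Leaving out single libraries, medians ranged from 0.11 to 0.37 for all collagens, -0.29 to 0.39 for fibrillar, -0.085 to 0.20 for basement membrane and 0.32 to 0.53 for other collagens, and the count of genes called was 0 each time.

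Of the 24 collagen genes named, 8 kept their sign in every alternative and 16 did not, namely Col4a1 in 12. The log2 fold change of Col4a1 was -0.018 with DESeq2 size factors and with DESeq2, -0.25 with library totals, -0.0039 with limma-voom, -0.029 without a filter, -0.0093 without small RNA rows, -0.012 with a term for olfactory reads and -0.50 within libraries with olfactory reads. Within those libraries the sign also turned for Col18a1 (-0.94), Col23a1 (-0.32), Col1a2 (0.78), Col2a1 (-0.42) and Col9a1 (1.47). Within libraries without olfactory reads it turned for Col4a2 (0.39), Col4a5 (-0.19), Col3a1 (0.070), Col5a2 (0.35), Col13a1 (-0.53) and Col4a6 (-0.92). Col9a1 was 0.075 with limma-voom and 0.17 with the term. Leaving out single libraries, ranges that crossed 0 were -0.16 to 0.21 for Col4a1, -0.19 to 0.15 for Col4a2, -0.013 to 1.40 for Col18a1, -0.085 to 1.72 for Col4a5, -0.60 to 0.024 for Col3a1, -0.54 to 2.01 for Col11a1, -0.015 to 0.76 for Col1a1, -0.65 to 1.18 for Col23a1, -2.66 to 0.20 for Col1a2, -1.51 to 0.27 for Col4a3, -0.12 to 2.22 for Col13a1, -1.32 to 1.33 for Col9a1 and -1.01 to 0.0036 for Col4a4. Genes at the lowest levels rest on few reads, so their ratios are the least certain.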

Other observations

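A collagen gene outside the naming rule was seen in the files under its older symbol, Emid2, which RefSeq lists as a synonym of Col26a1. It had 57.9, 36.7 and 46.7 CPM in sh2-Ift88 libraries, against 89.3, 72.1 and 70.9 CPM in control libraries. The groups did not overlap, beside 3.69% of all genes tested that were lower without overlap. The log2 fold change was -0.72 (SE 0.25, edgeR adjusted p = 0.9995). It was singled out after its values were seen, and it is not counted among the 43 collagen genes. The library with the highest Hapln1 level, a gene for a link protein of cartilage matrix, was control 3 with 4.55 CPM, against at most 0.562 CPM in the other libraries. Control 3 was also the library with the highest Col9a1 level.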
